A study of Homo sapiens with 2 samples.

Results

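FZR1 activates the anaphase promoting complex, a ubiquitin ligase also called the cyclosome (APC/C), and the mRNAs of the core subunits of this ligase were followed in cisplatin-treated control and FZR1 ko cells. The 10 core subunit genes, ANAPC1, ANAPC2, ANAPC4, ANAPC5, ANAPC7, ANAPC10, ANAPC11, CDC16, CDC23 and CDC27, were taken by their Entrez gene IDs, and all 10 had a value among the 23033 genes with one. The study made RNAseq of total RNA from breast cancer cells labelled T-47D, with 1 library of WT cells, called control here, and 1 library of FZR1 ko cells. Both were treated with 2 µg/ml cisplatin, a platinum drug that damages DNA, and the time of treatment is not given in the sources used here. The FZR1 ko line was made with a lentiviral CRISPR/Cas9 vector and single cell cloning, so it stands for 1 clone. With 1 library per condition no difference had a replicate check, no test was made, and the spread of any value is unknown.

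The APC/C joins ubiquitin to cyclins, securin and other cell cycle proteins, which the proteasome then destroys. A catalytic module of a cullin-like subunit and a RING subunit receives ubiquitin from E2 enzymes. A platform of scaffold subunits carries this module, and a lobe of subunits built from tetratricopeptide repeats (TPR) binds the coactivators. CDC20 is the coactivator of early mitosis, and FZR1, also called CDH1 (a name it shares with the E-cadherin gene), is that of late mitosis and G1.

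The deposited values were FPKM, fragment numbers divided by transcript length and library size, so levels of different genes can be set side by side within a library. FPKM holds no number of reads, and the depth behind each value is unknown. Among 244 short RNA genes, FZR1 ko most often stood at 0.977 times the control value, with 46 genes within 0.5% of this ratio. If these genes had equal numbers of reads in both libraries, the FZR1 ko library was about 1.02 times as deep. That they had was not tested. The log2 ratio below is log2(FPKM + 1) of FZR1 ko minus that of control, for the 13554 genes that reached 1 FPKM in either library. It understates differences of low genes because of the added 1 FPKM. Their median log2 ratio was -0.0048, with quartiles at -0.42 and 0.43. FZR1 itself was at 12.3 FPKM in control against 10.1 FPKM in FZR1 ko, which does not check the labels, since Cas9 indels need not remove an mRNA. Of 12 luminal markers, 7 were under 1 FPKM in both libraries, among them the estrogen receptor ESR1 with 0.04 and 0.13 FPKM, PGR with 0.01 FPKM in control and listed at 0 in FZR1 ko, and GATA3 with 0.31 and 0.15 FPKM, while the keratin KRT8 had 829 and 998 FPKM. The summed level of the 12 was 1491 FPKM in control against 1824 FPKM in FZR1 ko, most of it KRT8 and KRT18. These were the 2 of the 5 kept luminal markers above 0, and XBP1, TFF1 and FOXA1 were below. The sum of 8 mesenchymal and basal markers was 431 and 374 FPKM. Most of this sum was VIM, at 314.55 and 294.79 FPKM, and KRT17, at 102.78 and 55.81 FPKM, and 5 of the 8 were kept. CDH2 (2.97 and 15.31 FPKM, log2 ratio 2.04) and ZEB1 (2.82 and 4.45 FPKM, 0.51) were above 0, and VIM, KRT17 and SNAI2 (7.05 and 3.86 FPKM, -0.73) below. The label T-47D, a luminal line, therefore goes against several of its defining markers in both libraries, and what this means for the subunits was not tested.

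All 10 core subunits were above 1 FPKM in both libraries. In control they ran from 3.29 to 76.8 FPKM with a median of 29.0 FPKM, and in FZR1 ko from 3.81 to 84.5 FPKM with a median of 31.9 FPKM. The median of all genes kept was 9.28 FPKM for control against 9.75 FPKM for FZR1 ko. In the log2 ratio, 8 subunits were above 0 and 2 below, beside 49.6% of all genes kept that were above 0, and the median of the 10 was 0.15. After the trend with transcript length and GC content described below was taken out, 7 were above 0 and 3 below, with a median of 0.21. A single subunit, ANAPC1, was at least 2-fold higher in FZR1 ko, and none was at least 2-fold lower. In bulk RNA, fewer cells that express a gene and less of its RNA per cell cannot be told apart. Of all genes kept, 6.78% were at least 2-fold higher and 6.72% at least 2-fold lower, so 1 of 10 is near the background. At a 1.5-fold threshold ANAPC1 and ANAPC7 were higher and no subunit was lower, against a background of 18.0% and 17.6%.

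**Figure D1:**
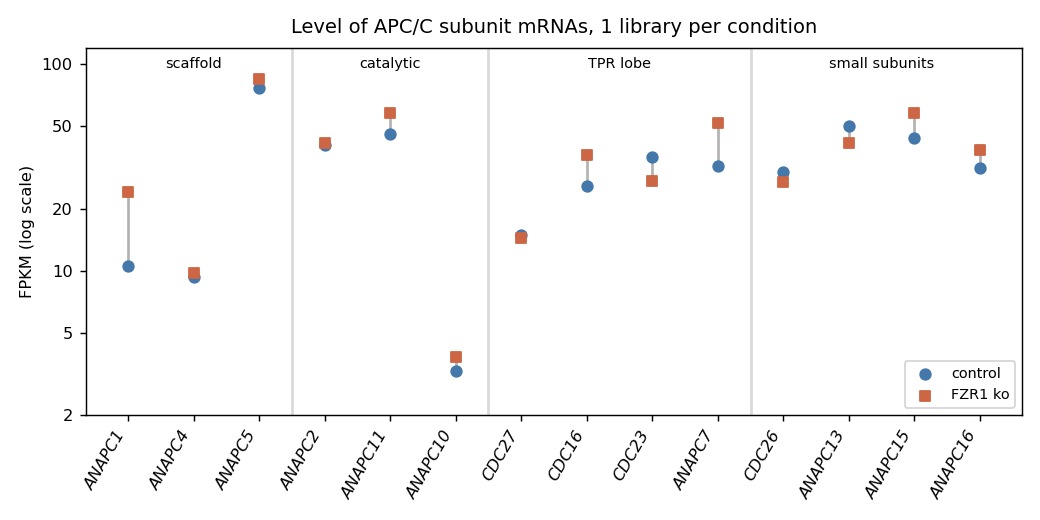
Level of each APC/C subunit mRNA in FPKM on a log axis, with 1 point per library (circle, control; square, FZR1 ko) and the subunits in order of their place in the complex. ANAPC5 is highest and ANAPC10 lowest in both libraries, and ANAPC1 shows the widest gap between them, from 10.6 to 24.0 FPKM.

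The scaffold subunits form the platform of the complex. ANAPC1, its largest subunit, is Entrez gene 64682 at chr2:111766231-111884193 on the minus strand of GRCh38.p14, with 48 exons in the canonical GENCODE 44 transcript. It was at 10.6 FPKM in control against 24.0 FPKM in FZR1 ko (log2 ratio 1.11), a plain fold of 2.27. Of all genes kept, 5.04% had a log2 ratio as high. ANAPC4 (Entrez gene 29945, chr4:25377263-25418498, plus strand, 29 exons) was at 9.29 FPKM in control against 9.79 FPKM in FZR1 ko (log2 ratio 0.07). ANAPC5 (Entrez gene 51433, chr12:121308245-121354209, minus strand, 17 exons) had 76.8 and 84.5 FPKM, a log2 ratio of 0.14. These partners thus differed little between the libraries, and ANAPC1 stood apart from both. In control ANAPC1 was 1.14 times the level of ANAPC4, and in FZR1 ko 2.45 times. ANAPC5 was 7.26 times the level of ANAPC1 in control and 3.52 times in FZR1 ko, whereas its ratio to ANAPC4 was 8.27 and 8.63.

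The value of ANAPC1 has limits that lie in its sequence. Chromosome 2 holds several copies of parts of this gene. Of the 7713 stretches of 50 bases in the canonical ANAPC1 transcript of 7762 bases, 4037 (52.3%) also occurred in transcripts of 12 other GENCODE genes, either strand counted. These stretches covered 5292 bases, and the last of them ended at base 6111, just past the coding sequence, which runs from base 277 to base 6108 without its stop codon. The rest of the transcript had none. Of the 12 genes, 3 were matched by name in the deposited table. The pseudogene ANAPC1P2 was at 5.11 FPKM in control against 7.51 FPKM in FZR1 ko (log2 ratio 0.48), ANAPC1P1 had 0.20 and 0.35 FPKM, and RGPD1 had 0.05 and 0.19 FPKM. Of these 3, only ANAPC1P2 reached 1 FPKM, and it was higher in FZR1 ko, as ANAPC1 was. Reads that fit more than 1 gene of the authors' annotation were divided among those genes by the authors' quantification. Whether the genes without a matched row were in that annotation is not given in the sources used here. ANAPC1P2 matched ANAPC1 from base 3087 to base 4418 with 1327 of 1332 aligned bases identical (99.6%), and ANAPC1P1 matched it with 98.2% of 2145 bases identical. A stretch of 60 bases shows how little sets a read of ANAPC1 apart from a read of ANAPC1P2. The first lies in exon 25 of ANAPC1 at chr2:111822492-111822551 and the second in ANAPC1P2 at chr2:87052884-87052943, both on the minus strand of hg38, and the capital marks the only base that differs.
ANAPC1: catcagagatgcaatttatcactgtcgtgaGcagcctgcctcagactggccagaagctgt
ANAPC1P2: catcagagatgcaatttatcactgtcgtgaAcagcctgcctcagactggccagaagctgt

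ANAPC1 is also a long transcript, and the log2 ratio moved with length across all genes. When the genes were split by length into 10 classes of equal size, the median log2 ratio was -0.12 in class 1, up to 858 bases, and 0.29 in class 10, from 7013 bases. ANAPC1, with 7762 bases, is in class 10. The other 9 subunits ran from class 1 (ANAPC11, 638 bases) to class 9 (CDC27, 5830 bases), and 7 of them lay above the median of their own class. With the median of genes of like length and GC content taken out, the log2 ratio of ANAPC1 was 0.83 in place of 1.11, below the 2-fold threshold. That of ANAPC11 was 0.55 in place of 0.34, and that of CDC16 was 0.64 in place of 0.48. ANAPC2 was the only subunit that changed sign, from 0.03 to -0.02. The part of length in these differences was not tested beyond this.

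The catalytic subunits differed less than ANAPC1. ANAPC2, the cullin-like subunit that holds the RING subunit (Entrez gene 29882, chr9:137174784-137188560, minus strand, 13 exons), was at 40.6 FPKM in control against 41.6 FPKM in FZR1 ko (log2 ratio 0.03). ANAPC11, the RING subunit that calls in the E2 enzyme (Entrez gene 51529, chr17:81890790-81900533, plus strand, 4 exons), had 45.6 and 57.9 FPKM, a log2 ratio of 0.34. The level of ANAPC2 was 0.89 times that of ANAPC11 in control and 0.72 times in FZR1 ko. These partners were thus close in level in both libraries. ANAPC10, which helps the coactivator to hold the substrate (Entrez gene 10393, chr4:144994575-145098571, minus strand, 5 exons), was the lowest subunit, with 3.29 and 3.81 FPKM and a log2 ratio of 0.17. Only 26.5% of all genes kept were at or below it in control. Its canonical transcript shared 21.2% of its 50-base stretches with other GENCODE genes, so its value is uncertain. All of these occurred in a protein-coding gene without a symbol that overlaps it on the same strand. The pseudogene ANAPC10P1 also held 5.1% of its stretches. For ANAPC2, ANAPC11, ANAPC4 and ANAPC5 no such stretch was shared.

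The TPR lobe, which binds the coactivators, held both subunits that were lower in FZR1 ko on this scale, while ANAPC2 joined them once the length and GC trend was taken out. CDC27, the subunit that takes up the C-terminal tail of FZR1 and CDC20 (Entrez gene 996, chr17:47117703-47189295, minus strand, 19 exons), was at 14.9 FPKM in control against 14.4 FPKM in FZR1 ko (log2 ratio -0.05). Of its 50-base stretches, 8.6% occurred in other genes, mostly CDC27 pseudogenes. CDC23 (Entrez gene 8697, chr5:138187650-138213323, minus strand, 16 exons), which also contacts the coactivator, had 35.5 and 27.3 FPKM, a log2 ratio of -0.37. Of all genes kept, 27.5% had a log2 ratio as low, so its difference is well within those of other genes. CDC16 (Entrez gene 8881, chr13:114234897-114272723, plus strand, 18 exons), a TPR subunit of the middle of the lobe, had 25.8 and 36.5 FPKM, a log2 ratio of 0.48. ANAPC7 (Entrez gene 51434, chr12:110372900-110403708, minus strand, 11 exons), a TPR subunit of the lobe's outer end, had 32.3 and 51.7 FPKM, a log2 ratio of 0.66. Of all genes kept, 22.3% were as high as CDC16 and 15.1% as high as ANAPC7. A GENCODE lncRNA without a symbol overlaps 19.0% of the exon bases of ANAPC7 on the same strand, and KIF20A overlaps 74 bases of CDC23 on the opposite strand, at 35.3 FPKM in control against 31.4 FPKM in FZR1 ko. Whether the authors' counting used strand is not given in the sources used here.

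**Figure D2:**
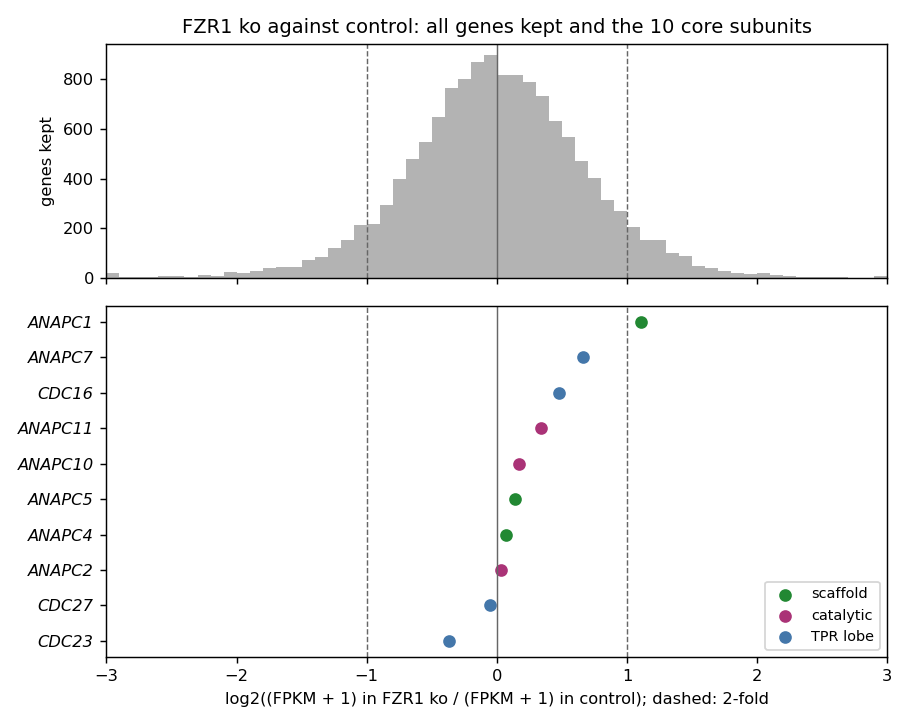
Upper panel, the number of genes kept by log2 ratio of FZR1 ko to control in steps of 0.1, with values beyond 3 in either direction put in the outermost bars. Lower panel, the log2 ratio of each core subunit, 1 point per gene, with dashed lines at 2-fold, which only ANAPC1 at 1.11 passes.

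The order of the subunits by FPKM was alike at its ends and changed in its middle. From the highest down, ANAPC5 had rank 1, ANAPC11 rank 2, ANAPC4 rank 9 and ANAPC10 rank 10 in both libraries. ANAPC7 had rank 5 in control and rank 3 in FZR1 ko, and CDC23 had rank 4 and rank 6. CDC23 was 1.38 times the level of CDC16 in control and 0.75 times in FZR1 ko, and 1.10 times the level of ANAPC7 in control and 0.53 times in FZR1 ko. ANAPC1 had rank 8 in control and rank 7 in FZR1 ko and CDC27 the reverse, with ANAPC1 at 0.71 times the level of CDC27 in control and 1.67 times in FZR1 ko. Which neighbours in this order differ beyond their spread cannot be said from 1 library each. The highest subunit was 23.3 times the lowest in control and 22.2 times in FZR1 ko, so mRNA levels of subunits of 1 complex spread as widely in both libraries. The summed FPKM of the 10 subunits was 294.6 in control and 351.5 in FZR1 ko.

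The remaining subunits of the complex are small proteins that steady the TPR lobe or act in the turnover of CDC20. CDC26, which binds CDC16, was at 30.2 FPKM in control against 26.8 FPKM in FZR1 ko (log2 ratio -0.17). ANAPC13 had 50.1 and 41.7 FPKM (-0.26), ANAPC16 had 31.5 and 38.6 FPKM (0.29), and ANAPC15, which acts in the release of CDC20 from the spindle checkpoint, had 43.8 and 57.9 FPKM (0.39). LRTOMT overlaps 540 bases, 67.4% of the canonical exons of ANAPC15, on the opposite strand, at 9.65 and 8.18 FPKM. The value of ANAPC15 is thus uncertain if the authors' counting did not use strand. In this group 2 genes were above 0 and 2 below. None was past 1.5-fold, beside 18.0% of all genes kept higher and 17.6% lower, so none of 4 is near the background. CDC26 and CDC16, which bind each other as proteins, lay on opposite sides of 0, at -0.17 and 0.48. Over all 14 subunits the median log2 ratio was 0.15, with 10 above 0 and 4 below, beside the 49.6% of all genes kept that were above 0.

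The genes that act on the core were compared by lists. The coactivators FZR1 (log2 ratio -0.26) and CDC20, at 80.2 FPKM in control against 70.5 FPKM in FZR1 ko (-0.18), were both slightly below 0. Of 8 checkpoint and inhibitor genes, 4 were above 0 and 4 below, with a median of 0.03 that became -0.06 once the length and GC trend was taken out, and 2 were at least 2-fold lower, beside 6.72% of all genes kept. These were FBXO5, which encodes the inhibitor EMI1, at 51.6 FPKM in control and 24.2 in FZR1 ko (-1.06), and MAD2L1BP, which encodes the silencer of MAD2 called p31comet, at 71.2 and 26.8 FPKM (-1.38). The highest log2 ratios of the list were those of MAD1L1, the partner of MAD2 at kinetochores, at 4.78 and 10.08 FPKM (0.94, and 2.11-fold without the added 1 FPKM), and of BUB1B, the checkpoint protein BUBR1, at 9.12 and 15.51 FPKM (0.71). At a 1.5-fold threshold 2 of the 8 genes were higher and 2 lower, beside 18.0% and 17.6% of all genes kept. The 5 E2 enzymes had a median of -0.74, with 1 above 0 and 4 below, beside 49.6% of all genes kept above 0. None was past 2-fold, beside 6.78% of all genes kept higher and 6.72% lower. At a 1.5-fold threshold 3 of the 5 were lower and 1 higher, beside the same 17.6% and 18.0%. UBE2C, which starts ubiquitin chains for the APC/C, had 285.61 and 154.85 FPKM (-0.88), and UBE2S, which extends them, had 163.96 and 98.05 FPKM (-0.74). The lowest log2 ratio in that list was that of UBE2D1, at 29.0 FPKM in control and 15.1 in FZR1 ko (-0.90), and the highest that of UBE2D2, at 21.3 and 41.2 FPKM (0.92). The core subunits ranged from -0.37 to 1.11 and the E2 enzymes from -0.90 to 0.92. The median of the core subunits, 0.15, lay nearer to that of all genes than the median of the E2 enzymes did. With 1 library each, this difference between the lists was not tested.

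The cullins and their RING partners are the nearest relatives of ANAPC2 and ANAPC11. Of 10 such genes 8 were above 0 and 2 below, beside 49.6% of all genes kept above 0, with a median of 0.37. None was past 2-fold, beside 6.78% of all genes kept higher and 6.72% lower. At a 1.5-fold threshold 3 were higher and 1 lower, beside 18.0% and 17.6% of all genes kept. CUL1, the scaffold of the SCF ligases, was at 11.6 FPKM in control against 21.1 FPKM in FZR1 ko (log2 ratio 0.81), the highest ratio of the list, and ANAPC2 had 0.03. The cullins ranged from there down to CUL9 at 0.04 and CUL7 at -0.68. RBX1, the RING partner of CUL1, had 48.7 and 53.6 FPKM (0.13), and ANAPC11 had 0.34.

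The promoter windows of the subunits, 250 bases before to 50 bases after the start in the RefSeq table of GRCh38.p14, were searched on both strands for letters known from cell cycle promoters. All 10 core subunits had a window, and the first listed for each gene was used. Those of ANAPC5 (chr12:121352362-121352661) and ANAPC10 (chr4:145098170-145098469) lie inside the gene spans given above, so their start is not the outer end of the gene. TTTGAA, the core of the cell cycle homology region, was found in 2 of 10 windows, ANAPC1 and ANAPC7, and in 15.4% of the windows of all 27305 genes. CCAAT was found in 5 of 10 (ANAPC5, ANAPC11, CDC27, CDC16 and CDC23) and in 35.7% of all. One of TTTCGCGC, TTTGGCGC or TTTCCCGC, forms of the E2F site, was found in 2 of 10 (CDC16 and CDC23) and in 2.79% of all. Each E2F form can hold no match to the other motifs, since none contains CCAAT or TTTGAA. The windows of CDC16 and CDC23 are shown because both hold CCAAT and TTTCCCGC while their log2 ratios lie on opposite sides of 0 (0.48 and -0.37). The window of ANAPC1 is shown because this gene had the largest log2 ratio of the subunits. Capitals mark the matches. CDC16 lies on the plus strand at chr13:114234647-114234946, CDC23 on the minus strand at chr5:138213274-138213573 and ANAPC1 on the minus strand at chr2:111884144-111884443.
CDC16: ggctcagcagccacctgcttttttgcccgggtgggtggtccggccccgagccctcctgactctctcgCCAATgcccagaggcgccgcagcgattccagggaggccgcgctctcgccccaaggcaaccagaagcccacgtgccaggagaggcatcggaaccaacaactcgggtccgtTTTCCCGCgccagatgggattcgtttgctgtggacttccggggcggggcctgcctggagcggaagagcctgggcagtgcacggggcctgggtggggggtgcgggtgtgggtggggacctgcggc
CDC23: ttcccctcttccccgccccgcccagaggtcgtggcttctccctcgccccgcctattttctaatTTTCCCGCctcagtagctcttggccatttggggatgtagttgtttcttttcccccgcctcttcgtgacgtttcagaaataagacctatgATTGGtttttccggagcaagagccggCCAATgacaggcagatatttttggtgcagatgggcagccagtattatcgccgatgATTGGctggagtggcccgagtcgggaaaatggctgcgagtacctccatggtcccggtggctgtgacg
ANAPC1: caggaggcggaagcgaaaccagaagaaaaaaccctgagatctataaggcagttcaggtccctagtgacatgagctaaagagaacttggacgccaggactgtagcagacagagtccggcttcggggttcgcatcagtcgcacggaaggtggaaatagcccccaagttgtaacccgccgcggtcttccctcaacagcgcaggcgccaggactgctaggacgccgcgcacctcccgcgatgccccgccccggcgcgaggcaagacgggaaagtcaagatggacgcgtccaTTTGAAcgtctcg
In CDC23 the matches to CCAAT begin 98, 72 and 17 bases before the start and that to TTTCCCGC 187 bases before it. In CDC16 they begin 183 and 74 bases before the start. In ANAPC1 the match to TTTGAA begins at base 38 of the transcript, counted from the start. A match is a description of the letters and does not show that a factor binds there.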

How the data were processed

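Total RNA was sequenced on a BGISEQ-500. Per the methods, reads were mapped by the authors to transcripts (Bowtie2) and quantified by RSEM against UCSC hg38. The submitters' processing notes name Bowtie2 2.2.5 (the methods give another version), HISAT2 2.1.0 and Trimmomatic 0.36. The annotation, the filters and the strand setting are not given in the sources used here. The deposited values were FPKM per Entrez gene ID to 2 decimals, in a table of 24663 rows, of which 1630 had no value and 23033 were used. It had 0 other columns of values per sample. RSEM divides reads that fit several genes, so values of genes with close copies depend on that division. Of the IDs, 22925 (99.5%) matched a symbol in the RefSeq table of GRCh38.p14, the hg38 build.

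Log2 ratios used a pseudocount of 1 FPKM, genes were kept if either library reached 1 FPKM, and calls were at least 2-fold. The log2 ratio and the 2-fold call were tested on simulated data, with changes well past the threshold and little noise. The shared stretches, the removal of the trend and the promoter search were not tested this way. Shared 50-base stretches, exons, length and GC content came from GENCODE 44 canonical transcripts, with length and GC known for 13043 (96.2%) of the 13554 genes kept. To take out the trend with both, the median log2 ratio of the gene's class (10 length by 10 GC classes) was subtracted. The subunits and lists were chosen with earlier results of these data known. The genes named were the 10 core subunits, the 4 small subunits, both coactivators, genes of the inhibitor, E2 and substrate lists past 2-fold or, where such a list had none, its highest and lowest log2 ratio, CUL1, RBX1 and any cullin past 2-fold, pseudogenes of the subunits, and markers. MAD1L1, BUB1B, UBE2C, UBE2S, CUL7 and CUL9 were added after their values were seen. RGPD1, KIF20A and LRTOMT were added because they share sequence or overlap. Protein sequences were not used here. Software was Biopython 1.88, matplotlib 3.10.9, pandas 2.3.3, numpy 2.4.6 and Python 3.11.15.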

Additional observations from a re-analysis of the deposited data

How the results depend on the processing

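No paired analysis was possible because there is 1 library of each kind, and none could be left out. Protein-coding genes only, the list without ANAPC1, and the removal of the length and GC trend were chosen after seeing the data. A value was taken to have moved when it changed by at least 0.1 on the log2 scale, or a count or share by over 1.5 times. A pseudocount cannot turn the sign of a subunit's log2 ratio, the filters leave it as it was, and centring or rescaling shifts all genes nearly alike, so the sign was open to change mainly with the trend removed, where it turned for 1 of 10 subunits, ANAPC2. Of 90 log2 ratios of single subunits under the alternatives, 5 moved. Most of the 90 could hardly move, since filters leave a log2 ratio as it was and centring or rescaling shifts it little. The pseudocount of 5 FPKM moved ANAPC1, and the removal of the trend moved ANAPC1, ANAPC10, ANAPC11 and CDC16. The number of subunits at least 2-fold higher, 1 at first, was 0 with a pseudocount of 5 FPKM, where ANAPC1 had 0.90, 0 with the trend removed, where it had 0.83, 0 without ANAPC1, and 2 at a 1.5-fold threshold. The share of all genes at least 2-fold apart, 13.5% at first, was 20.8% with a pseudocount of 0.1 FPKM, 3.34% with one of 5 FPKM, 7.95% without a filter and 35.6% at 1.5-fold, each by the construction of the setting. The share at least 2-fold higher, 6.78% at first, was 10.8%, 1.35%, 3.99% and 18.0% in the same order. The median of the cullin list was 0.26 with a pseudocount of 5 FPKM in place of 0.37, and that of the E2 enzymes was -0.61 with the trend removed in place of -0.74. The other 100 of 114 medians, counts and shares stayed, among them list medians that a filter leaves as they were. The depth behind each subunit is unknown, and ANAPC10 was the lowest of them in FPKM.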

Other observations

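The proteins that the APC/C marks for destruction were described as mRNA as well. Of 20 substrate genes, 8 were above 0 and 12 below in FZR1 ko, beside 49.6% of all genes kept above 0, with a median log2 ratio of -0.14. None was past 2-fold, beside 6.78% of all genes higher and 6.72% lower, and at a 1.5-fold threshold 2 were higher and 3 lower, beside 18.0% and 17.6%. The lowest log2 ratio was that of NEK2, a mitotic kinase, at 58.3 FPKM in control and 32.5 in FZR1 ko (-0.82), and the highest that of ANLN, an actin-binding protein of cell division, at 37.2 and 63.1 FPKM (0.74). With the length and GC trend removed the median was -0.06. These are mRNA levels, and the protein levels on which the APC/C acts were not analysed here.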
